A study of Apis mellifera ligustica with 12 samples.

Results

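The miRNAs ame-miR-2796-3p, ame-miR-184-3p and ame-miR-981-3p were 3 of the 4 most abundant in these honeybee brain libraries. They were selected by name from 1350 listed miRNAs, of which 180 are known honeybee miRNAs, because their measured levels in these libraries were high, so the levels themselves are given as a description without a test. Small RNA was sequenced from 12 libraries of Apis mellifera ligustica brain tissue, 3 in each of 4 groups. The groups were CK, from untreated bees and taken here as the sampling before treatment, and X1D10, X1D20 and X1D30 (written D10, D20 and D30), from bees 10, 20 and 30 days after exposure to fluvalinate began. Fluvalinate is a pyrethroid used against Varroa mites, and it was given as strips hung in the hive and renewed at fixed intervals. Each library was made from pooled brains of adult foragers from 1 colony, with glands and pigments removed. The control colonies that the study describes may or may not be the source of CK, so treatment, sampling date and possibly colony cannot be told apart in any difference from CK.

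A mature miRNA is cut from 1 arm of a hairpin precursor and loaded into an Argonaute protein, while the opposite arm is mostly degraded. It then recognises messenger RNAs mainly through its seed, the bases 2 to 8 from the 5′ end, and lowers their translation or stability. miR-184 is shared by insects and vertebrates, and in Drosophila it is required for development of the female germ line. miR-981 and miR-2796 are known from insects, and miR-2796 has been described as abundant in honeybee brain.

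The sequences of the 3 miRNAs are shown first because their seeds decide which messages they can pair with. They are written 5′ to 3′ in DNA letters as deposited, with the seed in capitals.
ame-miR-2796-3p: gTAGGCCGgcggaaactacttgc
ame-miR-184-3p: tGGACGGAgaactgataagggc
ame-miR-981-3p: tTCGTTGTcaacgaaacctgca
The 3 seeds are all different, and no other known honeybee miRNA in the list has any of them. ame-miR-2796-3p is 23 nt long with 60.9% G and C, ame-miR-184-3p is 22 nt with 54.5%, and ame-miR-981-3p is 22 nt with 45.5%, where the median of the 180 known honeybee miRNAs was 47.7%. The first 15 bases of ame-miR-981-3p hold an inverted repeat, in which positions 1 to 7 and 9 to 15 are reverse complements of each other (capitals).
ame-miR-981-3p, inverted repeat: TTCGTTGtCAACGAAacctgca
It was the only 1 of the 180 known honeybee miRNAs (0.556%) with repeat arms of at least 7 bases.

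By RefSeq's gene positions on Amel_HAv3.1, the same build that the reads were aligned to, the 3 hairpins lie on 3 different chromosomes. Mir2796 is on linkage group 4 at positions 9019741 to 9019868, within the span of the protein-coding gene LOC408804 (8940540 to 9048511). Mir981 is on linkage group 2 at 11209287 to 11209380, within the span of the protein-coding gene LOC410870 (11188043 to 11226452). Mir184 is on linkage group 13 at 3593330 to 3593421, outside any other gene and 245 bases from the protein-coding gene LOC100576527. The table gives gene spans without strands or exons, so intronic and exonic positions were not separated here.

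The depth was between 8454313 and 15979901 counts per library on listed miRNAs, and 95% Wilson intervals on the shares of the 3 miRNAs reached at most 0.0261 percentage points above the estimate, which covers counting error only. D10-2 was the library furthest from its group. D30-3 had counts for 837 listed miRNAs, against 510 (CK-1) to 626 (D30-1) in the others. The labelled tissue was checked on miRNAs known from insect neurons (miR-124, miR-137, miR-1000 and miR-932), and all 4 were counted in every library with summed levels of 28747 to 41708 TPM. The 2 muscle miRNAs (miR-1 and miR-133) summed to 2981 to 5036 TPM and the 2 photoreceptor miRNAs (miR-7 and miR-210) to 2768 to 3807 TPM, both below the neuronal sum in every library. The neuronal sum came mostly from miR-124 (12933.5 to 31130.8 TPM) and miR-932 (5772 to 15460 TPM), with 3251 to 5659 TPM for miR-137. miR-1000 went the other way, at 11.96 to 40.89 TPM. This was below each muscle and photoreceptor miRNA, of which miR-210 had the lowest level, 688 TPM. The sums also compare 4 miRNAs with 2, and the marker lists hold miRNAs with wider expression too.

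ame-miR-2796-3p held between 18.4% and 26.4% of the listed counts of a library. Its share was 18.4%, 22.7% and 19.2% in the CK libraries, 19.6%, 21.3% and 20.5% in D10, 20.4%, 20.8% and 23.2% in D20, and 26.4%, 18.7% and 20.4% in D30 (replicates 1, 2 and 3). The 4 groups overlapped, with the highest share in D30-1 and the lowest in CK-1. In the authors' TPM, it averaged 184936 ± 22202 in the CK libraries, 188383 ± 8384 in D10, 198240 ± 15140 in D20 and 200838 ± 37421 in D30 (SD, n = 3 each).

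ame-miR-184-3p was the steadiest of the 3. Its share was 16.3%, 16.1% and 16.7% in the CK libraries, 17.5%, 17.8% and 15.6% in D10, 18.3%, 16.6% and 16.7% in D20, and 15.6%, 17.7% and 20.1% in D30. The 3 CK libraries were the tightest group, and D30 held both the lowest and the highest library. It averaged 150716 ± 2099 TPM in the CK libraries, 156042 ± 10190 TPM in D10, 158593 ± 7929 TPM in D20 and 163704 ± 20972 TPM in D30 (SD, n = 3 each).

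ame-miR-981-3p was less abundant and more variable. Its share was 4.62%, 6.90% and 4.32% in the CK libraries, 4.97%, 8.02% and 4.58% in D10, 5.02%, 5.53% and 6.12% in D20, and 3.96%, 4.47% and 4.90% in D30. Single libraries, CK-2 and D10-2, stood above the others of their groups, while the libraries within D20 and within D30 lay closer together. All D30 shares were below all D20 shares. It averaged 48632 ± 13307 TPM in the CK libraries, 53814 ± 17257 TPM in D10, 51295 ± 5377 TPM in D20 and 40868 ± 4362 TPM in D30 (SD, n = 3 each).

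**Figure D1:**
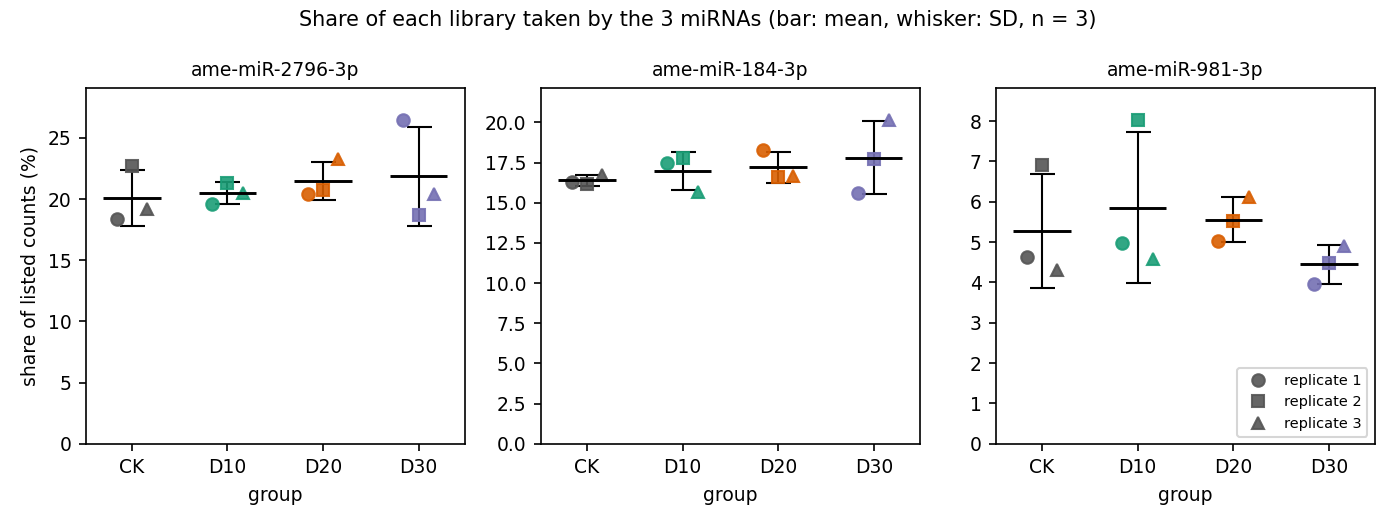
Share of listed counts (%) of ame-miR-2796-3p, ame-miR-184-3p and ame-miR-981-3p in each of the 12 libraries by group, with a symbol for each replicate number, the mean as a bar and the SD as a whisker (n = 3); axes start at 0 and differ between panels. Each treated group overlaps CK in all 3 panels, and the CK-2 and D10-2 libraries are high for ame-miR-981-3p at 6.90% and 8.02%. For ame-miR-981-3p the D30 libraries (3.96% to 4.90%) lie below the D20 libraries (5.02% to 6.12%).

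The 3 miRNAs ranked 2, 3 and 4 by mean level over the 12 libraries, at 193099 ± 21130, 157264 ± 11618 and 48652 ± 10989 TPM (SD, n = 12). ame-miR-276-3p, which in Drosophila acts in olfactory memory, ranked 1 at 215912 ± 22380 TPM, and ame-miR-317-3p ranked 5 at 39141 ± 4984 TPM. These levels chose the miRNAs and are a description. The order was not equally clear at each step. ame-miR-276-3p was above ame-miR-2796-3p in 8 of 12 libraries, the exceptions being CK-2, D10-2, D20-3 and D30-1, and their means differed by about 1 SD. ame-miR-2796-3p was above ame-miR-184-3p in 12 of 12 libraries, by 1.02 to 1.70 times, and ame-miR-184-3p was above ame-miR-981-3p in 12 of 12, by 2.22 to 4.10 times. ame-miR-981-3p was above ame-miR-317-3p in 11 of 12 libraries, all but D30-1, although their means differed by less than the SD of ame-miR-981-3p.

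Together the 3 miRNAs held between 39.3% (CK-1) and 47.2% (D10-2) of the listed counts of a library. With ame-miR-276-3p the 4 held 65.1% to 68.5%, a narrower range. The sum of ame-miR-2796-3p and ame-miR-276-3p was 44.4 ± 1.78% over the 12 libraries, against SDs of 2.26 percentage points for ame-miR-2796-3p and 2.44 for ame-miR-276-3p alone. Shares of 1 library add to a fixed total, so a high share of one of these abundant miRNAs lowers those of the others whatever happened to its RNA, and how far that enters here was not tested.

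Whether the 3 miRNAs differed between the groups was tested with edgeR's quasi-likelihood F test over all 787 miRNAs with at least 10 counts. Counts were normalized by the trimmed mean of M-values (TMM), with Benjamini-Hochberg adjustment of the p-values. No change was called for any of the 3 at any time. At 10 days the log2 fold changes against CK were 0.03 for ame-miR-2796-3p, 0.05 for ame-miR-184-3p and 0.15 for ame-miR-981-3p, with standard errors of 0.15, 0.13 and 0.26 (edgeR, adjusted p = 1 for each). At 20 days they were 0.18, 0.15 and 0.16 with the same standard errors (edgeR, adjusted p = 1 for each). Single libraries moved the 20-day values: ame-miR-2796-3p was 0.38 without CK-2 (edgeR, unadjusted p = 0.0330, adjusted p = 1) and 0.07 without D20-3, and ame-miR-981-3p was 0.50 without CK-2 and 0.02 without D20-3. For ame-miR-184-3p the 20-day value ran from 0.10 without D30-3 to 0.24 without CK-3, and it was 0.23 without D30-1 (edgeR, unadjusted p = 0.0376, adjusted p = 0.978). At 30 days they were 0.12 and 0.13 for ame-miR-2796-3p and ame-miR-184-3p, and −0.24 for ame-miR-981-3p (edgeR, adjusted p = 0.784, 0.694 and 0.746). In brain tissue as a whole, fewer cells that make a miRNA and less of it in each cell cannot be told apart.

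The intervals show how large a change these libraries leave possible. For ame-miR-2796-3p the 95% interval of the fold against CK ran from 0.815 to 1.28 at 10 days, from 0.906 to 1.42 at 20 days and from 0.868 to 1.36 at 30 days. For ame-miR-184-3p it ran from 0.856 to 1.26, from 0.918 to 1.35 and from 0.904 to 1.33 at the 3 times. For ame-miR-981-3p it was wider, from 0.741 to 1.66, from 0.744 to 1.67 and from 0.564 to 1.26. All 9 intervals lay within the fold change threshold of the study, an absolute log2 fold change above 1.

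**Figure D2:**
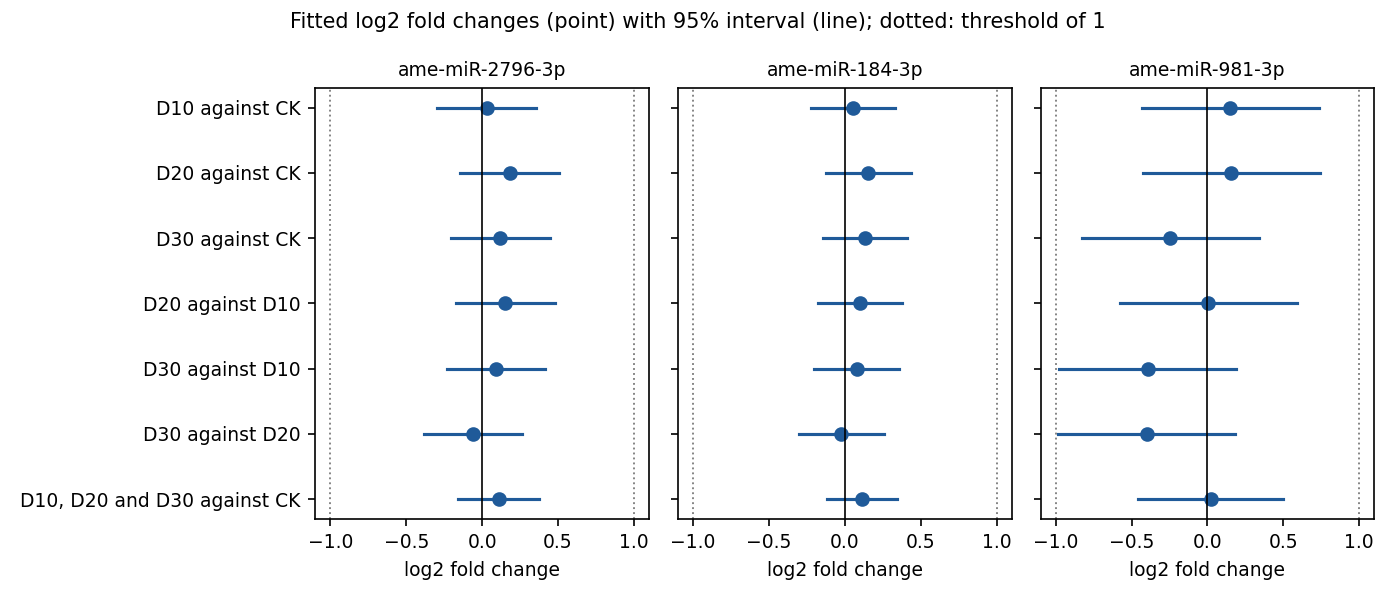
Fitted log2 fold changes (points) with 95% intervals (lines) from edgeR for each of the 3 miRNAs in 7 comparisons, the group named first over the group named second; dotted lines mark the threshold of 1 and −1. Every interval crosses 0, and those of ame-miR-981-3p are the widest, as in D30 against CK, at −0.83 to 0.34.

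In this fit, the counts were as low over all miRNAs tested. At an adjusted p under 0.05 and an absolute log2 fold change above 1, 0% of the 787 miRNAs were called at 10 days, 0% at 20 days and 0% at 30 days against CK. At an unadjusted p under 0.05, edgeR gave 6.1%, 4.07% and 6.86% of them at 10, 20 and 30 days, and none of the 3 miRNAs, whose smallest unadjusted p against CK was 0.241 by edgeR. With DESeq2 in place of edgeR, 4, 2 and 1 miRNAs were called at the 3 times. The study itself reported differentially expressed miRNAs between time points, using edgeR at these same thresholds with a test it does not name. It found most of those it checked by qRT-PCR to match the sequencing. The median log2 fold change of all 787 was 0 at 10 days, 0 at 20 days and 0.25 at 30 days. The filter on summed counts can admit miRNAs counted mainly in D30-3. Without D30-3, the 30-day median over miRNAs with a mean of at least 10 CPM moved by −0.05. The log2 fold change of ame-miR-184-3p at 30 days was then −0.040. The median over all miRNAs tested is not given without that library. Among the 17 other miRNAs of the 20 most abundant, 1 was higher and 2 were lower at 10 days at an unadjusted p under 0.05, and none was at 20 or 30 days.

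Groups that did not overlap were found for 1 of the 3 miRNAs in 1 of 3 comparisons with CK. ame-miR-184-3p had 182804, 180098 and 175543 TMM-normalized CPM, the counts scaled to a common library size, in D20, against 159075, 163128 and 161477 in CK. All D20 libraries were above all CK libraries on this scale, and on the deposited TPM scale as well, where D20 had 153519 to 167730 and CK had 149421 to 153138. The shares of listed counts overlapped, at 16.6% to 18.3% in D20 and 16.1% to 16.7% in CK, so the separation depended on the scaling. Sums of the muscle and photoreceptor markers, computed in TPM only, were separated as well. The 2 muscle miRNAs summed to 2981 to 3591 TPM in D20, against 3869 to 4637 TPM in CK, and the 2 photoreceptor miRNAs to 2798 to 3582 TPM in D20, against 3612 to 3807 TPM in CK, lower in all D20 libraries for both. Within these lists, in TPM, miR-1 and miR-7 were lower in all D20 libraries, miR-133 overlapped and miR-210 was higher in all D20 libraries. In TMM-normalized CPM miR-7 overlapped too, while miR-1 and miR-210 stayed separated. The sums of the 4 neuronal miRNAs overlapped, at 33000 to 35847 TPM in D20 and 28747 to 33601 TPM in CK. The photoreceptor sum of CK was also above those of D10 (2768 to 2990 TPM) and D30 (3264 to 3415 TPM). The part of these markers in the levels of ame-miR-184-3p was not tested. Of all 787 miRNAs, 12.2% did not overlap between D20 and CK, 9.15% between D10 and CK and 10.5% between D30 and CK.

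Between the treated times, the 9 log2 fold changes of the 3 miRNAs ran from −0.40 to 0.15, and the smallest unadjusted p was 0.157 by edgeR. The largest of the 9 in absolute size, 0.40, was between 0.36 and 0.60 over 26 alternatives, none with an adjusted p under 0.05. The smallest unadjusted p of the 9 was under 0.05 in 3 of these, at 0.0449 with only the 2 groups compared, 0.0480 without D10-3 and 0.0437 without D30-3 by edgeR. The lowest were those of ame-miR-981-3p, −0.39 in D30 against D10 and −0.40 in D30 against D20, with standard errors of 0.26 (edgeR, adjusted p = 0.438 and 0.546). For this miRNA, all D30 libraries were below all D20 libraries in share and in TPM. In TMM-normalized CPM they overlapped, at 37632 to 51882 in D30 and 50133 to 64466 in D20. How many of all miRNAs were separated between D30 and D20 is not given here. With all 12 libraries in the fit there were 0 of the 3 at an unadjusted p under 0.05, beside 6.1% of all miRNAs in D20 against D10. The background was 11.2% in D30 against D10, while D30 against D20 gave 7.62%. With the 3 treated times pooled against CK, the log2 fold changes were 0.11, 0.11 and 0.02 for ame-miR-2796-3p, ame-miR-184-3p and ame-miR-981-3p (edgeR, adjusted p = 1.00 for each). Without D30-1 the pooled value of ame-miR-184-3p was 0.20 (edgeR, unadjusted p = 0.0337, adjusted p = 0.995). The pooled background was 4.07% of all miRNAs at an unadjusted p under 0.05. The test of any difference among the 4 groups gave unadjusted p = 0.596, 0.600 and 0.431 by edgeR, with adjusted p = 0.853, 0.853 and 0.733.

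The spread between libraries differed among the 3 miRNAs. The SD of log2(CPM + 1) within groups was 0.18 for ame-miR-2796-3p, 0.14 for ame-miR-184-3p and 0.34 for ame-miR-981-3p. The median was 0.28 over all 787 miRNAs and 0.25 over the 53 with at least 1000 CPM. From low to high among those 53, ame-miR-184-3p stood at place 7, ame-miR-2796-3p at 12 and ame-miR-981-3p at 45.

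Ratios between 2 miRNAs of 1 library need neither depth nor scaling, and they are given as a description. ame-miR-2796-3p was 1.24 ± 0.19 times ame-miR-184-3p over the 12 libraries (SD). The ratio was 1.13, 1.41 and 1.15 in the CK libraries, 1.12, 1.20 and 1.31 in D10, 1.12, 1.25 and 1.39 in D20, and 1.70, 1.05 and 1.02 in D30, so D30 held the highest value and the 2 lowest. ame-miR-2796-3p was 4.12 ± 0.95 times ame-miR-981-3p, with the lowest ratio in D10-2 (2.66) and the highest in D30-1 (6.68). This ratio was 3.98, 3.29 and 4.44 in the CK libraries and 3.95, 2.66 and 4.48 in D10. It was 4.07, 3.75 and 3.80 in D20, and 6.68, 4.17 and 4.17 in D30. All D30 libraries lay above all D20 libraries but overlapped CK and D10, and this was not tested.

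The ratio of ame-miR-184-3p to ame-miR-981-3p was the most even within D30. It was 3.52, 2.34 and 3.88 in the CK libraries, 3.52, 2.22 and 3.41 in D10, 3.65, 3.00 and 2.72 in D20, and 3.93, 3.96 and 4.10 in D30. All D30 libraries lay above the other 9, by a small margin over CK-3, and CK-2 and D10-2, where ame-miR-981-3p was high, were the lowest. This was 1 of 9 comparisons of these ratios with CK, singled out after its values were seen and not tested. Among all 190 pairs of the 20 most abundant miRNAs, the ratio did not overlap between D30 and CK in 7.89%, between D20 and CK in 8.42% and between D10 and CK in 11.1%.

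**Figure D3:**
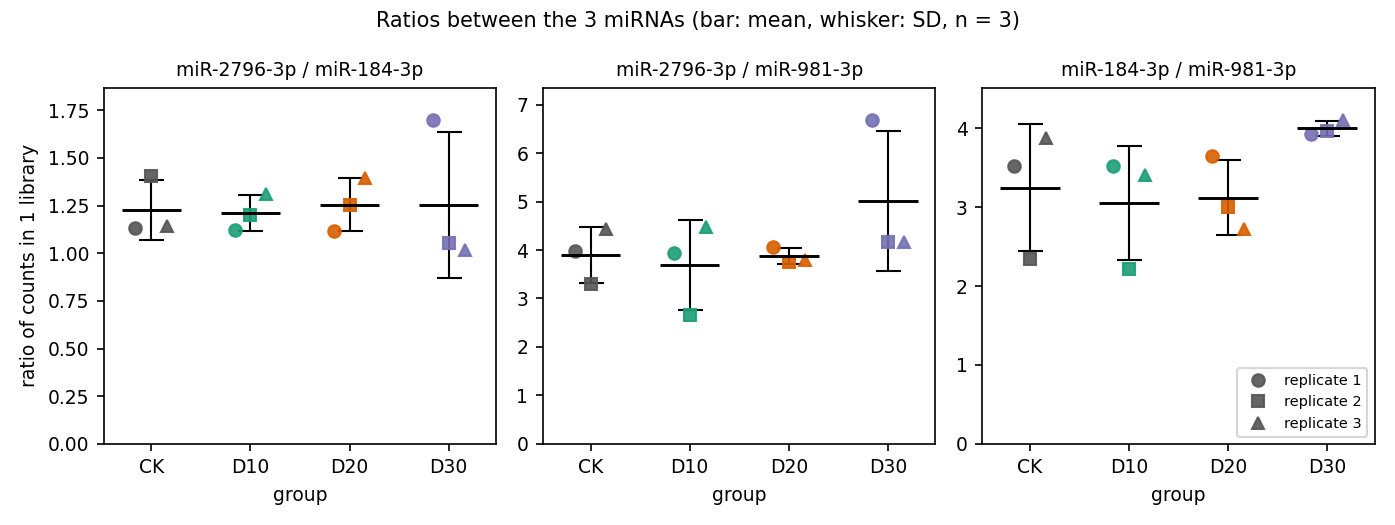
Ratio of counts of 2 of the 3 miRNAs within each library, by group, with a symbol for each replicate number, the mean as a bar and the SD as a whisker (n = 3). D30-1 stands apart in both ratios that contain ame-miR-2796-3p, at 1.70 and 6.68, while the 3 D30 libraries have 3.93 to 4.10 times as much ame-miR-184-3p as ame-miR-981-3p.

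The files also list, for each hairpin, a near-identical entry named after the miRNA of another species, called here an end variant. They are printed because their ends set whether the seed is kept.
miR-2796-y: cGTAGGCCggcggaaactacttgc
miR-184-y: tGGACGGAgaactgataagggaa
miR-981-y: tTCGTTGTcaacgaaacctgcact
miR-2796-y starts 1 base earlier than ame-miR-2796-3p, so the same stretch of bases gives it another seed, GTAGGCC. miR-184-y and miR-981-y start at the same base as the honeybee miRNAs, keep their seeds and differ only at the 3′ end. The assignment of reads to either entry was the authors' own.

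Over the 12 libraries the end variants were minor, with 0.285% of the joint counts for miR-2796-y, 3.60% for miR-184-y and 2.08% for miR-981-y. miR-981-y was 1.97%, 1.76% and 1.74% in D20, against 2.22%, 2.18% and 2.34% in CK. miR-2796-y was 0.272%, 0.271% and 0.241% in D20, against 0.279%, 0.299% and 0.313% in CK. For both, all D20 libraries were below all CK libraries. miR-184-y overlapped, at 4.06%, 3.07% and 2.76% in D20, against 4.15%, 3.28% and 4.25% in CK. At 10 and 30 days none of the 3 variants was separated from CK.

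Such a separation was common among variants of other miRNAs too. Of 42 pairs of a honeybee miRNA with an end variant of at least 1000 counts, 38.1% did not overlap between D20 and CK, 9.52% between D10 and CK and 11.9% between D30 and CK. All 16 pairs separated at 20 days had the lower variant share in D20. The levels of the variants themselves were not called, with log2 fold changes in D20 against CK of −0.01 for miR-2796-y, −0.09 for miR-184-y and −0.15 for miR-981-y (edgeR, adjusted p = 1 for each).

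**Figure D4:**
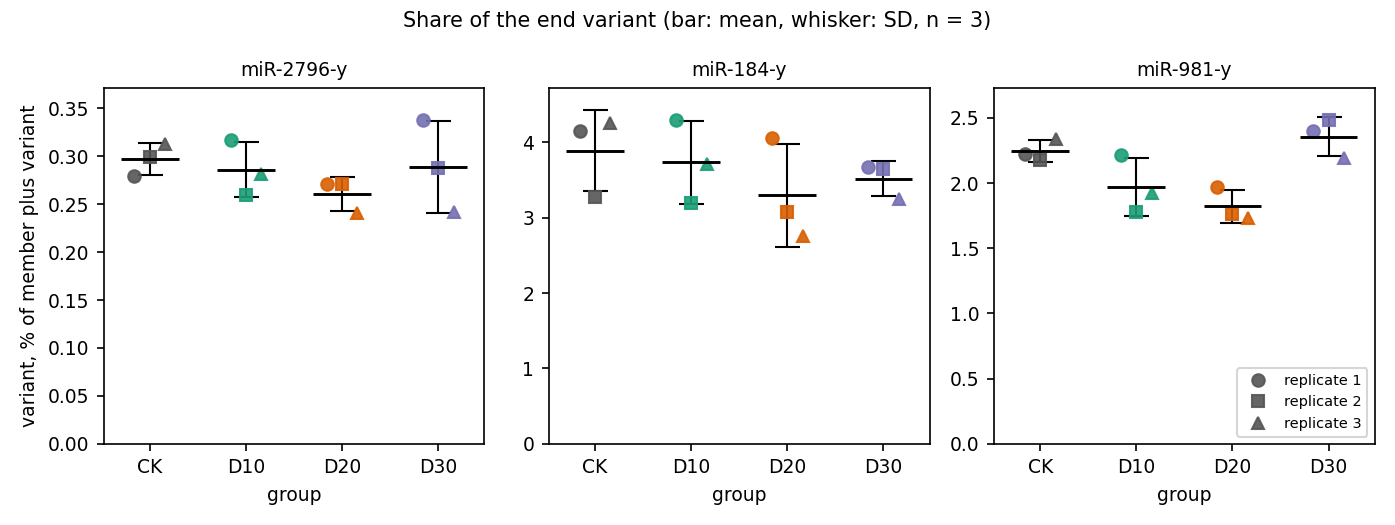
Share of the end variant in the joint counts of miRNA and variant (%), by group, for miR-2796-y, miR-184-y and miR-981-y, with a symbol for each replicate number, the mean as a bar and the SD as a whisker (n = 3). For miR-2796-y and miR-981-y the 3 D20 libraries lie below the 3 CK libraries, at most 0.272% and 1.97%.

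Nearly all reads of the 3 hairpins came from the 3p arm. The opposite arms are listed under the names of other species, and they are printed for comparison with the 3p arms above.
miR-2796-x: aGGGGTTTctatcggcctccag
miR-184-x: cCTTATCAttctcctgtccggt
miR-981-x: gGGTTTCGtgacaggcgagc
miR-2796-x had 2024 counts over the 12 libraries, 1 for every 15962 of ame-miR-2796-3p, and miR-184-x had 3821, 1 for every 6903 of ame-miR-184-3p. miR-981-x had 32 counts in all, 0 to 7 in a library and 0 in CK-3 and D20-3, so no difference between groups was detectable at this depth. Neither miR-2796-x nor miR-184-x was called in any comparison with CK, and their log2 fold changes lay between −0.05 and 0.32 (edgeR, smallest adjusted p = 0.954).

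The miRNAs most like each of the 3 across the 12 libraries were found by Pearson's r of log2(CPM + 1) over 99 miRNAs with at least 100 CPM. The points share libraries and scaling, so r is a description. For ame-miR-2796-3p they were miR-276-x (r = 0.70), ame-miR-3786-3p (0.65) and ame-miR-34-5p (0.61). Without D30-1 and D30-2, the libraries furthest from its median, these were 0.54, 0.51 and 0.45. For ame-miR-184-3p they were miR-30-x (0.73), miR-29-y (0.70) and ame-miR-29b-3p (0.62), but miR-30-x was at 0 counts in at least 1 library. The entry miR-29-y is near-identical to ame-miR-29b-3p, an end variant of it, so they are not separate cases. Without D30-1 and D30-3, the libraries furthest from the median of ame-miR-184-3p, the 3 values of r were 0.09, 0.47 and 0.63.

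For ame-miR-981-3p the most alike were ame-miR-124-3p (r = 0.78), a miRNA of neurons, ame-miR-929-5p (0.75) and ame-miR-3786-5p (0.72). ame-miR-124-3p was also highest in D10-2, at 31131 TPM, against 12933 to 21713 TPM in the other libraries. Without D10-2, left out after the values were seen, the 3 values of r were 0.62, 0.55 and 0.52. Without CK-2 and D10-2, the libraries furthest from the median of ame-miR-981-3p, they were 0.67, 0.64 and 0.67. Among themselves the 3 abundant miRNAs had r of 0.07 between ame-miR-2796-3p and ame-miR-184-3p, 0.40 between ame-miR-2796-3p and ame-miR-981-3p and 0.43 between ame-miR-184-3p and ame-miR-981-3p. The most alike were picked as the 3 highest of 99 values of r, so they exceed unpicked values by selection. The 2 sets are therefore not compared.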

How the data were processed

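Small RNA was sequenced from 12 libraries, and each library has its own table. The authors removed low-quality and short tags, other classes of small RNA and reads on exons, introns and repeats, then assigned tags with Bowtie to honeybee miRNAs and to miRNAs of other species in miRBase, and the rest to hairpins predicted by MIREAP. Raw read counts for every miRNA were deposited. The deposited TPM values are those counts over a library total that exceeds the listed counts (these are 91.5% to 92.7% of it), with no correction for length and with 0 written as 0.01. Reads were not reprocessed here.

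Samples were grouped by their titles. The 3 miRNAs and all lists were chosen with earlier results of these data known. Counts were fitted with edgeR 4.0.16 in R 4.3.3 (TMM, quasi-likelihood F test, all 12 libraries in 1 fit with 4 group means, a summed count of at least 10, Benjamini-Hochberg within each comparison), since the study names edgeR but no test. Standard errors were taken from the fold change and the root of F. Calls needed an adjusted p under 0.05 with an absolute log2 fold change above 1. The script was tested on simulated data. Alternatives were DESeq2 1.42.0, limma 3.58.1 on log2(TPM + 1) and log2(TPM + 10), edgeR's classic exact test, other scalings, filters and sets of libraries, a replicate block, variant counts added and leaving out each library. Python 3.11.15, pandas 2.3.3, numpy 2.4.6 and scipy 1.17.1 were used for the rest.

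Depth was 8454313 to 15979901 counts, so that 3 counts are 0.188 to 0.355 CPM. No replicate pair agreed within sampling noise. Colonies are not named in the labels, so p-values measure the spread between these libraries. Named were the 3 miRNAs, their arms, near-identical entries (at most 1 mismatch over at least 18 bases, ends at most 3 bases apart), their neighbours in rank, the 3 most alike of each and the marker lists. Target prediction and qRT-PCR were not analysed here.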

Additional observations from a re-analysis of the deposited data

How the results depend on the processing

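Over 306 values of the log2 fold changes of the 3 miRNAs against CK under alternatives, 293 kept their direction, 13 did not, and none reached an adjusted p under 0.05 (lowest 0.490), with 3 at an unadjusted p under 0.05 and a range of −0.40 to 0.50. The pooled value of ame-miR-981-3p, 0.02, was −0.0086 with the sum of listed counts as library size, −0.0093 with the total implied by TPM and −0.0047 without the 4 most abundant miRNAs in the sum. Leaving out 1 library at a time, ame-miR-2796-3p ranged from −0.0045 (without D10-2) to 0.22 (without CK-2) at 10 days and from −0.011 (without D30-1) to 0.25 at 30 days. ame-miR-184-3p ranged from −0.040 (without D30-3) to 0.24 at 30 days. ame-miR-981-3p ranged from −0.15 (without D10-2) to 0.49 (without CK-2) at 10 days, from −0.40 to 0.028 (without CK-2) at 30 days and from −0.081 (without D10-2) to 0.34 (without CK-2) with times pooled. Its pooled value was also below 0 without CK-1, CK-3, D20-3 or D30-3. miRNAs called at 10, 20 and 30 days, 0 each in the report, were 4, 2 and 1 with DESeq2 (1 with times pooled), 2, 3 and 0 with only the 2 groups compared in the quasi-likelihood fit, and 8, 7 and 2 with the classic exact test, which also used only those 2 groups. At 10 days 0 to 6 were called on leaving out a library, 6 without D30-3 and 1 without D30-2. The mean level of ame-miR-184-3p was 171217 CPM by TMM and 170911 CPM by share of listed counts, whose denominators are smaller than that of TPM. Without the 4 most abundant miRNAs in the library size, the median over miRNAs with a mean of at least 10 CPM moved by −0.10. This was so in D20 and D30 against D10. The cause of these changes was not tested.

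No pairing by replicate number was seen in the correlations of deviations from group means. With the same number they ran from −0.37 to 0.37 (median −0.0037, 18 pairs, 5 over 0.1). The 36 pairs with other numbers had a median of 0.04 with 12 over 0.1. The labels do not say whether libraries of the same number share a colony, and so few pairs cannot decide it. With a replicate block, the log2 fold changes at 10, 20 and 30 days were 0.03, 0.18 and 0.12 for ame-miR-2796-3p, 0.06, 0.16 and 0.13 for ame-miR-184-3p and 0.14, 0.19 and −0.21 for ame-miR-981-3p, and 1 miRNA in place of 0 was called in D30 against CK.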
